A study of Mus musculus with 9 samples.

Results

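Phlda2, Impact, H19, Igf2r, Peg3, Peg10, Snrpn, Mest, Grb10 and Zfp57, labelled as canonical imprinted genes, were chosen by name and not by their values. Earlier results of these data were known when they were chosen. Of these 10 names, 9 were matched to a row of the expression table among 20087 named genes, and H19 was not analysed here. Gene expression had been measured by RNA sequencing of polyadenylated RNA from mouse embryos of the B6D2F1 background, injected as zygotes and taken at E2.75, around the morula stage. Each of the 9 libraries came from a pool of 60 embryos, with 3 libraries for each of 3 groups. The NC group, labelled wild type, received a nonspecific control siRNA, a short double-stranded RNA that should match no gene. The Hdac1/2 cKD group received siRNA that targets Hdac1 and Hdac2 together, which encode histone deacetylases, and the Sin3a KD group received siRNA against Sin3a, which encodes the scaffold of a corepressor complex that carries both deacetylases. RFP and GFP RNA was added to all groups before extraction. An siRNA lowers a transcript and does not remove it. The study's title sets its question in lineage development and DNA methylation before implantation, and imprinted genes are a class whose activity depends on such methylation.

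An imprinted gene is read mainly from the copy inherited from 1 parent. At canonical imprinted genes the choice follows DNA methylation that was laid down in egg or sperm on a control region, and this methylation has to survive the genome-wide loss of methylation in the early embryo. ZFP57, a KRAB zinc finger protein, binds methylated copies of a short motif in these regions and brings the corepressor TRIM28, which helps to keep the mark. Among the genes described, Igf2r, Grb10 and Phlda2 are known to be read mainly from the maternal copy in many tissues, and Impact, Peg3, Snrpn, Mest and Peg10 from the paternal copy. Zfp57 itself is not part of that class, so the label of canonical imprinted genes holds for the others only. The table adds both parental copies together, so it shows how much RNA a gene gave and not which copy gave it.

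The ZFP57 motif was looked for near start sites only. The 250 bases before each start site were searched for TGCCGC on both strands (GCGGCA on the other), in RefSeq promoters of build GRCm38.p6. Windows were found for 7 of the genes, 15 windows in all, and 2 overlapping windows of 1 gene, Mest, held the motif, while 8.68% of 32851 windows of all genes held it. The Mest window (chr6:30737800-30738049, forward strand) is shown because it held the motif at 2 places, in capitals, and the Snrpn window (chr7:60140226-60140475, reverse strand) as an example without it. Each lies outside annotated exons.
Mest: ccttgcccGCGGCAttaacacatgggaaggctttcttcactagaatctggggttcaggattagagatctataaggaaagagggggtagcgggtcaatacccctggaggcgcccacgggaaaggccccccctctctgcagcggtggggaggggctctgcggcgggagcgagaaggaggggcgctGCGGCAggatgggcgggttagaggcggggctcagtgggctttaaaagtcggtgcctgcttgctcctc
Snrpn: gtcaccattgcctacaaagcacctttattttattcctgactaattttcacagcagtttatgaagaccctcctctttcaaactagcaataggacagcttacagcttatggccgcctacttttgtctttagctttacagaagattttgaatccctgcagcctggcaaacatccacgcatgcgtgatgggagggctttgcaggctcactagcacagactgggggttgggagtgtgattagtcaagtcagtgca
The Mest window held 14 CpG sites, the dinucleotides that DNA methylation marks, and the Snrpn window held 3, against a median of 6 over all windows searched. CpG sites were most frequent in 1 window of Grb10, with 40 sites, and in that of Igf2r, with 27. A match to the motif is a match of letters only. The windows were taken by start site and not as control regions of imprints. A window without the motif therefore says nothing about the control region of that gene.

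The values are normalised counts, read counts per gene that the authors divided by normalisation factors. They added up to 11.9 M to 13.5 M (M, mega) per library, and the depth estimated from low values ran from 8.43 M reads in NC replicate 3 to 16.7 M reads in NC replicate 1. NC replicate 3 also had the largest share of genes listed at 0, at 28.4%, where the other libraries had 13.2% to 23.4%. The targeted genes were at 16.9% (Hdac1) and 13.3% (Hdac2) of the NC mean in Hdac1/2 cKD and at 29.0% (Sin3a) in Sin3a KD, and Hdac1 was also at 34.3% of NC in Sin3a KD. All 13 morula markers looked at, among them Pou5f1 and Cdx2, passed the filter on low values described below. Their summed levels were 63401 to 70023 in NC, lower in Hdac1/2 cKD at 44222 to 47122, and 57699 to 63650 for Sin3a KD. Pou5f1 and Klf5, with NC means of 19289 and 11468.5, weighed most in these sums. Single markers differed: Cdx2 was at 15.0% and Krt18 at 109% of NC in Hdac1/2 cKD. In Sin3a KD, Krt8 was at 30.4% and Pou5f1 at 105% of NC. For 11 of 12 cumulus or granulosa cell markers with a value, the sums were 156 to 228 in NC, between 240.5 and 327 in Hdac1/2 cKD and between 278 and 329 in Sin3a KD. None of the 11 was at 0 in every library, 7 had a mean below 10, and Has2 was listed at 0 in 6 libraries. Inhbb made up most of these sums, with means of 150 in NC, 165 in Hdac1/2 cKD and 225 in Sin3a KD. The sums of 10 oocyte markers were 532 to 812 in NC, 597 to 640 in the double knockdown and 581 to 661 in the other. The part of these cells in the results was not tested. The labels do not say that replicates came from separate collections. A p-value here sets a difference of group means against the spread of these samples only, which may be technical. In pools of whole embryos, fewer cells of a type and less RNA per cell cannot be told apart.

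**Figure D1:**
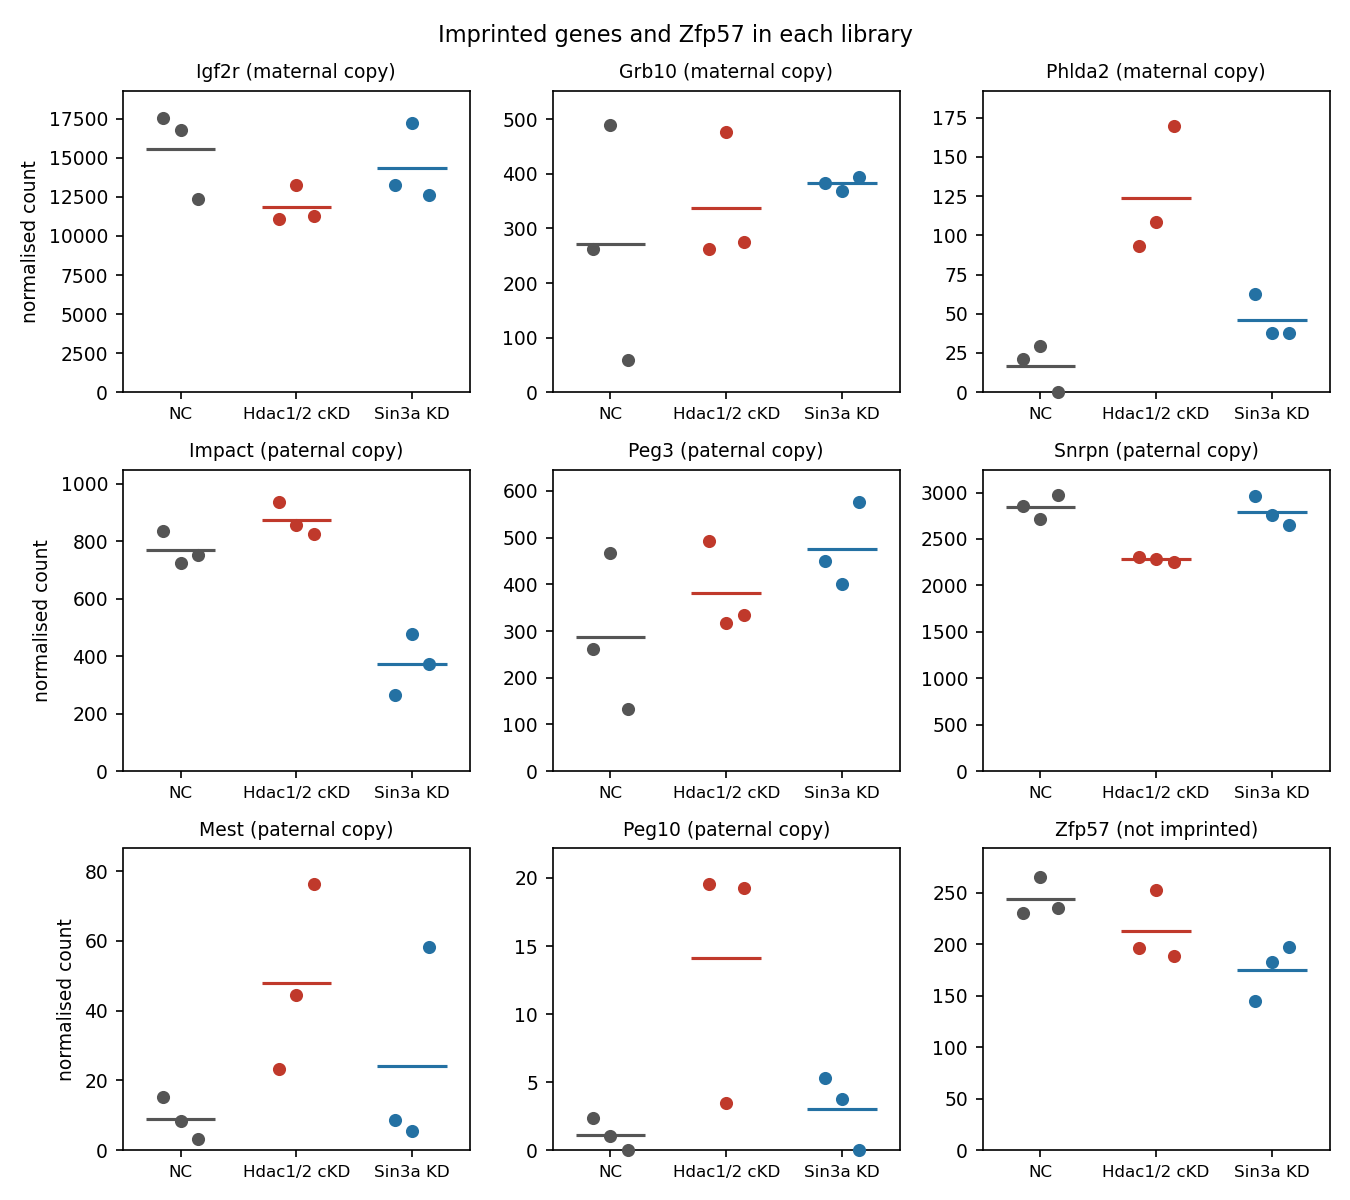
Normalised counts (vertical axes, each from 0) of the 9 genes in the 3 libraries of each group. Points are libraries, in the order of their replicate numbers, and the line is the group mean. Impact is lower in all 3 Sin3a KD libraries (264, 477 and 374) than in any other, and Phlda2 is highest in the 3 Hdac1/2 cKD libraries (92.9, 108 and 169.7).

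Levels spanned a wide range in control embryos. To compare genes, normalised counts were divided by the length in kb of the longest transcript in GENCODE vM21. Per kb, Igf2r stood first in NC at 1751 ± 316 (SD, n = 3) and Snrpn next at 1372 ± 60.5, and the libraries of these neighbours overlapped. Impact followed at 204.7 ± 15.7 per kb, apart from both its neighbours, and then Zfp57 at 93.8 ± 7.26. Grb10 (53.5 ± 42.6 per kb), Peg3 (33 ± 19.4) and Phlda2 (22.1 ± 20.0) came next, and each overlapped its neighbour in the order. Mest at 3.38 ± 2.27 and Peg10 at 0.172 ± 0.179 were lowest, and both are known from the paternal class and rested on few reads in control embryos. The order held in Hdac1/2 cKD except that Phlda2, at 163 ± 53.6 per kb, moved up to place 4, between Impact and Zfp57. In Sin3a KD the middle genes drew together, with Impact at 98.8 ± 28.3, Grb10 at 75.6 ± 2.45, Zfp57 at 67.3 ± 10.5, Phlda2 at 60.5 ± 19.04 and Peg3 at 54.7 ± 10.4 per kb, each overlapping the next.

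**Figure D2:**
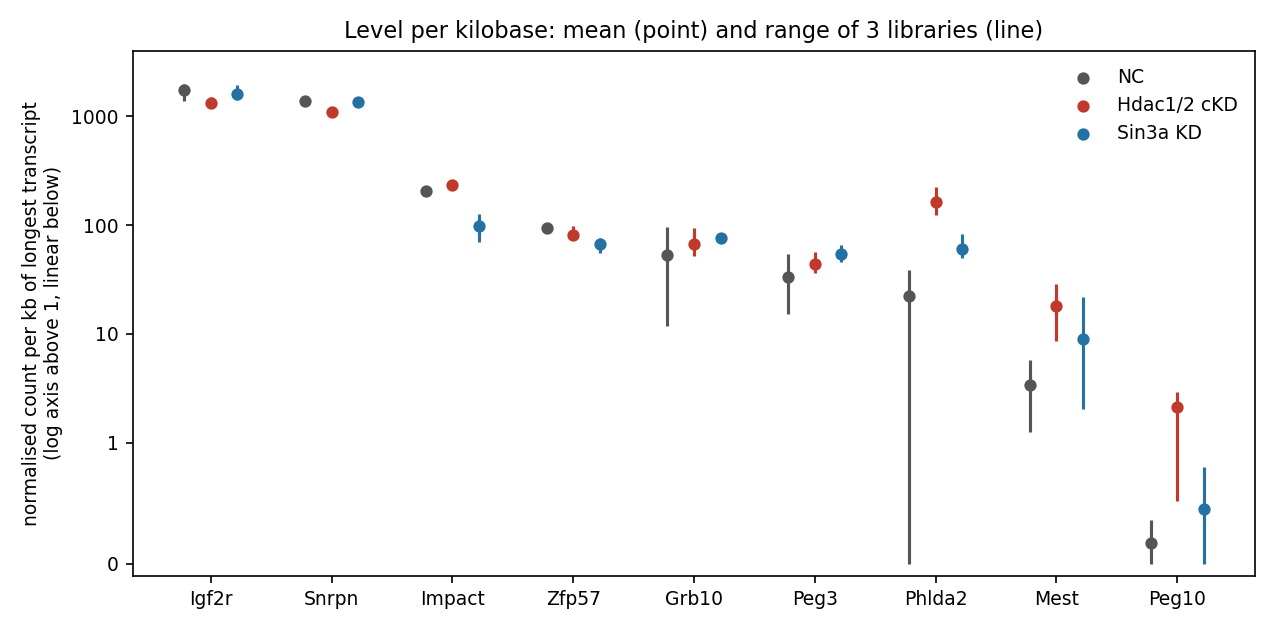
Normalised counts per kb of the longest transcript for the 9 genes (vertical axis logarithmic above 1 and linear below), ordered by the NC mean. Points are means and lines the range of 3 libraries. In every group Igf2r and Snrpn lie highest and Peg10 lowest.

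Each comparison was fitted on log2(value + 1) across the 13343 genes for which 3 or more of the 9 libraries stood at 10 or above, with limma and Benjamini-Hochberg adjustment, and a gene was called at an adjusted p below 0.05. Of the 9 genes, 8 were tested. Peg10 reached 10 in 2 libraries and was not tested, and Mest reached it in 5. Mest passed the filter only through Hdac1/2 cKD, where all 3 libraries were above 10. Elsewhere only NC replicate 1 and Sin3a KD replicate 3 were. The part of Mest in counts and medians of comparisons with Hdac1/2 cKD is therefore a description only. On this scale the pseudocount of 1 makes changes of low genes look smaller, while a single library at 0 can enlarge it, as for Phlda2.

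The comparison of Hdac1/2 cKD with NC asks what both deacetylases do for these genes. Phlda2 rose and Snrpn fell. These were 2 of 8 tested genes, beside 15.6% of all tested genes called in this comparison (7.81% higher and 7.8% lower). The other 6 did not pass. The median log2 fold change of the 8 was 0.37, beside 0.03 over all tested genes. Groups did not overlap for 3 of the 8 (37.5%), Mest among them, close to the 33.1% of all tested genes.

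Phlda2 (chromosome 7, 143501545 to 143503150, reverse strand) encodes a small protein with a pleckstrin homology domain that restrains growth of the placenta. Its normalised counts were 20.9, 29.4 and 0 in NC, 92.9, 108 and 169.7 in Hdac1/2 cKD, and 62.4, 37.5 and 37.4 in Sin3a KD. The 3 groups did not overlap, with NC lowest, Sin3a KD between and Hdac1/2 cKD highest. The Hdac1/2 cKD mean was 124 ± 40.6 against 16.8 ± 15.1 in NC (SD, n = 3), 7.38 times as high (log2 3.79, SE 1.07, limma adjusted p = 0.0384). The 0 stands in the shallowest library, NC replicate 3, where 1 read was worth about 1.54 normalised counts and 3 reads, the limit that a count of 0 allows, 4.63. Without that library the change was smaller and better separated, at log2 2.23 (adjusted p = 0.00335, over a range of 0.00335 to 0.108 in all alternatives). The call was lost in 11 of 19 alternatives, among them each fit without a Hdac1/2 cKD library (adjusted p of 0.0844, 0.0951 and 0.108), without Sin3a KD replicate 1, 2 or 3 (0.0532, 0.0583 and 0.0575) and with lane as a factor (0.0552), where the change was log2 4.17.

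Snrpn (chromosome 7, 59982495 to 60140219, reverse strand) encodes a core protein of spliceosomal particles, used most in brain. It gave 2851, 2721 and 2972 in NC, 2301, 2289.9 and 2251 in Hdac1/2 cKD, and 2963, 2757 and 2651 in Sin3a KD. All 3 Hdac1/2 cKD libraries lay below every other library, and NC and Sin3a KD overlapped. The mean fell to 80.1% of NC, 2281 ± 26.4 against 2848 ± 126 (SD, n = 3; log2 -0.32, SE 0.09, limma adjusted p = 0.0318). Snrpn varied little within groups: its spread on the log2 scale, an SD of 0.0605, was larger than that of only 0.615% of tested genes. The call was lost with libraries scaled to equal totals (log2 -0.21, adjusted p = 0.129, where all alternatives gave 0.0111 to 0.129). It was also lost without NC replicate 1 (0.0622), NC replicate 3 (0.0718) or Hdac1/2 cKD replicate 1, 2 or 3 (0.0823, 0.0933 and 0.0993). Snurf, which shares its first exons and transcripts with Snrpn, stood at 38.9 to 90.7 over the 9 libraries, and the division of reads between the 2 names is uncertain.

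Mest (chromosome 6, 30723547 to 30748465, forward strand) encodes an enzyme-like protein of the alpha/beta hydrolase family made in mesoderm. Its values were 15.4, 8.34 and 3.33 in NC and 23.1, 44.5 and 76.5 in Hdac1/2 cKD, with no overlap. The fitted difference did not pass (48.0 ± 26.8 against 9.01 ± 6.04; log2 2.34, SE 0.84, limma adjusted p = 0.0787). It passed without Sin3a KD replicate 3 (adjusted p = 0.0445, over a range of 0.0445 to 0.252), the library in which Mest stood at 58.3 while the others of its group gave 8.77 and 5.40.

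Peg10 (chromosome 6, 4747306 to 4760517, forward strand), derived from a retrotransposon and needed in the placenta, was listed at 2.38, 1.05 and 0 in NC. In Hdac1/2 cKD it was listed at 19.5, 3.47 and 19.2, and in Sin3a KD at 5.31, 3.78 and 0. The highest values were in 2 Hdac1/2 cKD libraries, and all others lay near the level of a few reads. Where both groups lie at or under a few reads no fold is given.

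Igf2r (chromosome 17, 12682406 to 12769664, reverse strand) encodes the receptor that takes up the growth factor IGF2 and sends it for breakdown. It was among the most abundant transcripts, above 99.6% of named genes by mean normalised count. Its values were 17556, 16766 and 12349 in NC, 11078, 13256 and 11297 in Hdac1/2 cKD, and 13274, 17209 and 12636 in Sin3a KD. NC replicate 3 lay within the range of Hdac1/2 cKD, and the other NC libraries lay above it. The difference in Hdac1/2 cKD, 11877 ± 1199 against 15557 ± 2807, did not pass (log2 -0.38, SE 0.14, limma adjusted p = 0.0981). Without NC replicate 3 it was log2 -0.54 with an adjusted p of 0.0139, and it also passed when libraries were centred on the median gene (0.0440), over a range of 0.0139 to 0.266. Igf2r overlaps the antisense RNA Airn in part. No source used here states that counting used strand, so reads from the stretch they share may not have been told apart.

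Grb10 (chromosome 11, 11930508 to 12038683, reverse strand), an adaptor that dampens signalling of insulin and IGF receptors, and Peg3 (chromosome 7, 6703892 to 6730431, reverse strand), a zinc finger protein, varied widely between control libraries. Grb10 gave 263, 490.3 and 59.5 in NC, 262, 477 and 276 in Hdac1/2 cKD, and 384, 369 and 394 in Sin3a KD. Peg3 gave 262, 466 and 133 in NC, 493, 316 and 334 in Hdac1/2 cKD, and 449.97, 401 and 576 in Sin3a KD. For both genes NC replicate 3 was the lowest of all 9 libraries and NC replicate 2 the highest of its group. Neither passed in Hdac1/2 cKD against NC (Grb10 log2 0.72, SE 0.69, limma adjusted p = 0.541; Peg3 log2 0.56, SE 0.37, limma adjusted p = 0.353). The sign for Grb10 turned without NC replicate 3 (log2 -0.14), and Peg3 passed without NC replicate 2 (log2 1.00, adjusted p = 0.0381, over a range of 0.0381 to 0.861).

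Zfp57 (chromosome 17, 37001163 to 37010635, forward strand) gave 230.2, 265 and 236 in NC and 196, 253 and 189 in Hdac1/2 cKD, which overlapped (log2 -0.20, SE 0.21, limma adjusted p = 0.564). Impact, described next, also overlapped NC in this comparison, with 937, 855 and 826 (log2 0.18, SE 0.19, limma adjusted p = 0.564).

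**Figure D3:**
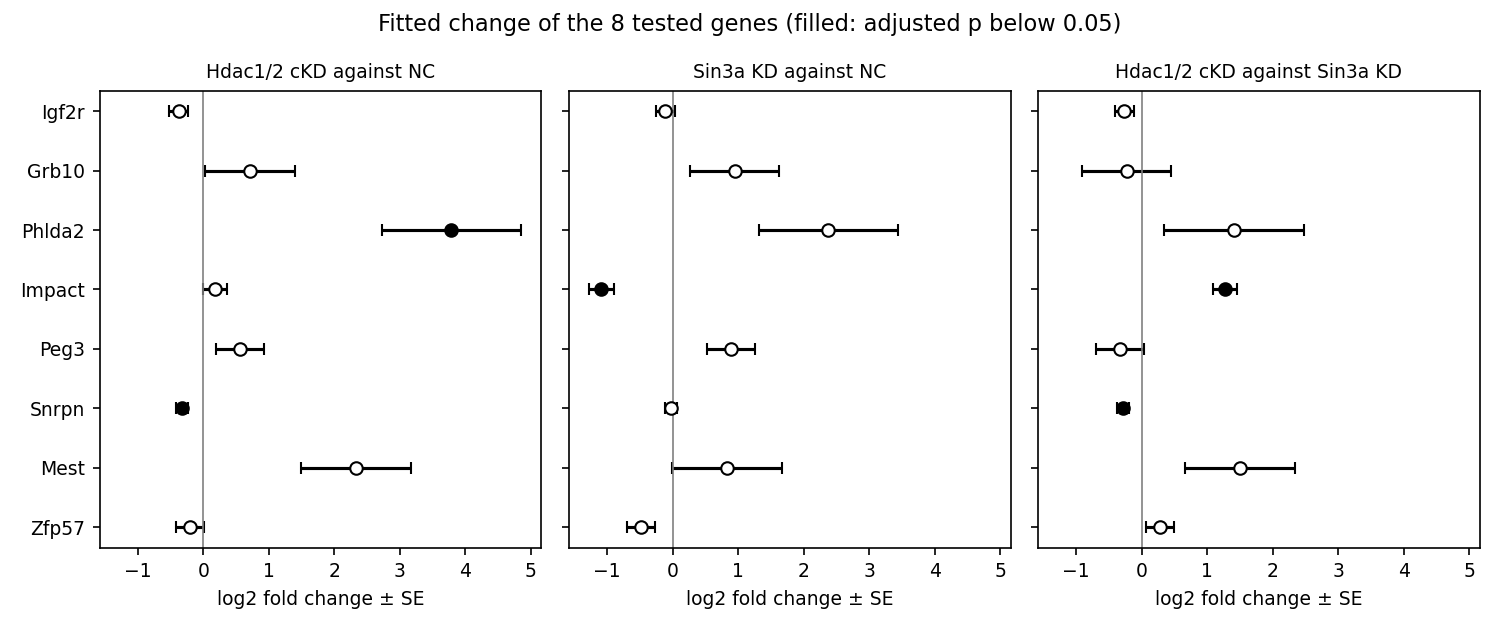
Log2 fold change with its SE (horizontal axis) of the 8 tested genes in the 3 comparisons. Filled points passed an adjusted p below 0.05: Phlda2 and Snrpn in the first panel, Impact in the second, and Impact and Snrpn in the third.

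In Sin3a KD against NC, which asks what the scaffold of the complex does, Impact was the 1 gene of 8 that was called, and it fell to 48.2% of its control level. Over all tested genes 7.96% were called in this comparison, 3.6% higher and 4.36% lower. Groups did not overlap for 3 of the 8 genes (37.5%), where 27.1% of all tested genes did not overlap. The median log2 fold change of the 8 was 0.40, beside 0.03 over all tested genes. Both knockdowns were set against the same NC libraries, so these values are not independent of those above.

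Impact, on chromosome 18, encodes a regulator that holds back the kinase GCN2, which slows protein synthesis when amino acids run short. It gave 836, 722 and 752 in NC and 264, 477 and 374 in Sin3a KD. All 3 Sin3a KD libraries lay below all 6 others. The mean was 372 ± 107 against 770.3 ± 59.1 (SD, n = 3; log2 -1.09, SE 0.19, limma adjusted p = 0.00542). The call was kept when any 1 library was left out, with an adjusted p of at most 0.0279. It was lost with lane as a factor (log2 -0.78, adjusted p = 0.0927) and with plain variances, neither trended nor robust (0.0537), over a range of 0.00215 to 0.0927. NC replicate 1 (836) and Sin3a KD replicate 1 (264) were each alone on their lane, so the fit with lane took nothing from them. Within lane 3, the only lane that holds both groups, NC replicate 3 gave 752 and the Sin3a KD libraries 477 and 374. Hdac1 was lowered in these libraries too, so the part of Sin3a and that of Hdac1 cannot be told apart in this comparison. Impact was at 113% of NC in Hdac1/2 cKD, where Hdac1 was at 16.9%, Hdac2 at 13.3% and Sin3a at 138% of NC. The part of each of these genes in the level of Impact was not tested.

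None of the other 7 tested genes passed in Sin3a KD against NC in limma, and 4 of the 8, Impact included, had an unadjusted p below 0.05. The share of all tested genes below that unadjusted p was not worked out, so whether this count is unusual is not known. Zfp57 gave 145, 183 and 197, all below the lowest NC library at 230.2, and its mean was 71.8% of NC (175 ± 27.1 against 244 ± 18.9; log2 -0.49, SE 0.21, limma adjusted p = 0.182). Phlda2 was above NC in each library and did not pass (45.8 ± 14.4 against 16.8 ± 15.1; log2 2.38, SE 1.07, limma adjusted p = 0.208). Peg3 was at 476 ± 90.1 against 287 ± 168 and overlapped NC replicate 2 (log2 0.89, SE 0.37, limma adjusted p = 0.170). Without that library it passed (log2 1.33, adjusted p = 0.0148, over a range of 0.0148 to 0.392). Grb10 (log2 0.95, SE 0.69, adjusted p = 0.452), Mest (log2 0.83, SE 0.84, adjusted p = 0.593), Igf2r (log2 -0.11, SE 0.14, adjusted p = 0.690) and Snrpn (log2 -0.03, SE 0.09, adjusted p = 0.880) were further from the threshold. A gene that did not pass can still have changed.

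Set directly against each other, the knockdowns differed in 2 of the 8 genes, with Impact higher and Snrpn lower in Hdac1/2 cKD. Over all tested genes 17.3% were called, 8.49% higher and 8.78% lower. The median log2 fold change of the 8 was 0.02, beside 0.01 over all tested genes. Impact was 2.35 times as high in Hdac1/2 cKD, 873 ± 57.8 against 372 ± 107 (SD, n = 3; log2 1.27, SE 0.19, limma adjusted p = 0.00056). This call was kept in all 19 alternatives, with an adjusted p between 0.000256 and 0.0163. Snrpn was at 81.7% of its Sin3a KD level (log2 -0.29, SE 0.09, limma adjusted p = 0.0455). It was lost in 10 of 19 alternatives, among them each fit without a Hdac1/2 cKD library (0.107, 0.121 and 0.123) or without a Sin3a KD library (0.178, 0.0886 and 0.0622). Phlda2 was 2.70 times as high in Hdac1/2 cKD and its libraries did not overlap those of Sin3a KD, but the fit over 9 libraries did not pass (log2 1.41, SE 1.07, limma adjusted p = 0.426). Without NC replicate 3, whose 0 enters the shared spread, the adjusted p was 0.0159, and with only these 6 libraries in the fit it was 0.0106, over a range of 0.0106 to 0.858. The groups did not overlap for 3 of 8 genes (37.5%), near the 39.7% of all tested genes.

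The spread between libraries was itself unusual for some of these genes. Within groups, Grb10 varied more than 99.0% of the 2116 tested genes whose mean lay within 1.5 times its own, Peg3 more than 96.8% of such genes and Phlda2 more than 95.9%, whereas Snrpn varied more than 2.64%. For Grb10 the range over 3 libraries was 3.02 on the log2 scale in NC, 0.86 in Hdac1/2 cKD and 0.09 in Sin3a KD. NC replicate 3 was the lowest NC library for 6 of the 9 genes (Phlda2, Igf2r, Peg3, Peg10, Mest and Grb10), while it was the lowest for 38.4% of all tested genes. After group means were taken off, Phlda2 and Grb10 moved together over the 9 libraries (Pearson's r of 0.90), as did Peg3 and Grb10 (0.79) and Phlda2 and Peg3 (0.77). All of these values include NC replicate 3, the shallowest library, and are a description only.

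Genes with the most similar pattern over the 9 libraries were taken from 9281 tested genes (9282 for Mest) with a mean of at least 50, predicted gene models left out. For Impact they were Ints7 (Pearson's r of 0.98), which encodes an Integrator subunit, and Stat2 (0.98), a transducer of interferon signals. For Phlda2 they were Hes6 (0.98), a helix-loop-helix factor, and G6pdx (0.98), the first enzyme of the pentose phosphate pathway. For Snrpn they were Osbpl2 (0.97) and Crnkl1 (0.97), a splicing factor gene. For Igf2r they were Setd2 (0.94), an H3K36 methyltransferase gene, and Marf1 (0.92). For Grb10 they were Chd7 (0.98), a chromatin remodeler gene, and Tiam2 (0.97). Peg3 was most like Bbs1 (0.96) and Rpp40 (0.95), Mest like Arhgef17 (0.92) and Bscl2 (0.92), and Zfp57 like Zfp709 (0.95) and Ccr4 (0.92). With only 9 libraries many genes reach such values: 153 had an r of at least 0.9 with Impact.

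Neighbours in the same imprinted domains were looked at next. Of 31 genes listed, 25 had a value and 19 were tested. With both deacetylases lowered 1 of 19 rose against NC and none fell, 5.26% beside 15.6% of all tested genes. It was Cdkn1c, the maternally read cyclin-dependent kinase inhibitor gene that lies in the domain of Phlda2, at 116 ± 16.2 against 48.0 ± 13.5 (SD, n = 3; log2 1.29, SE 0.33, limma adjusted p = 0.017). Its values were 63.5, 41.7 and 38.9 in NC, 114, 134 and 102 in Hdac1/2 cKD, and 114, 64.3 and 88.3 in Sin3a KD, where it did not pass (log2 0.87, limma adjusted p = 0.119). Its call was lost without Hdac1/2 cKD replicate 1 (adjusted p = 0.052) or replicate 2 (0.0772), over a range of 0.0112 to 0.0772, which left no neighbour called. Cdkn1c was thus above every NC library in both knockdowns, as Phlda2 was. Nap1l4, of the same domain, was at 862 ± 74.4 in Hdac1/2 cKD and 760.01 ± 113 in NC (log2 0.19, limma adjusted p = 0.41).

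In Sin3a KD against NC limma called none of the 19 neighbours, beside 7.96% of all tested genes, and 6 had an unadjusted p below 0.05. For the unadjusted p no share over all tested genes was worked out, so that count is a description only. Ube3a, a ubiquitin ligase gene of the Snrpn domain, was nearest, at 234 ± 13.9 against 371 ± 88.6 (log2 -0.63, limma adjusted p = 0.0794), and it passed without NC replicate 3 (0.0255, over a range of 0.0255 to 0.615). Between the knockdowns 2 of 19 were higher in Hdac1/2 cKD and none lower, 10.5% beside 17.3% of all tested genes. They were Ube3a at 489 ± 88.3 (log2 1.05, SE 0.21, limma adjusted p = 0.0039) and Fignl1 of the Grb10 domain at 691 ± 26.8 against 410.4 ± 75.3 (log2 0.77, SE 0.15, limma adjusted p = 0.00411). Some neighbours were chosen for their place and not by the naming rule. Sgce, which shares its promoter region with Peg10, stood at 81.6 ± 3.58 in NC and 43.9 ± 15.9 in Hdac1/2 cKD (log2 -0.94, limma adjusted p = 0.113). Copg2, which overlaps Mest from the other strand, stood at 129 ± 17.4 in NC, 139 ± 48.6 in Hdac1/2 cKD and 225 ± 32.3 in Sin3a KD (limma adjusted p = 0.0925 for Sin3a KD against NC).

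Among other canonical imprinted genes, of 63 listed, 51 had a value and 34 were tested. In the first comparison, Hdac1/2 cKD against NC, 3 rose and none fell, which is 8.82% beside 15.6% of all tested genes. Gnas, a signalling G protein gene, rose to 4926 ± 223 against 3623 ± 149.96 (log2 0.44, SE 0.09, limma adjusted p = 0.00515). Ascl2, a factor of the placental precursor cells, rose to 29.1 ± 4.44 against 6.91 ± 5.07 (log2 2.12, SE 0.59, limma adjusted p = 0.0255), and Cdkn1c is described above. Ascl2 lost its call without NC replicate 1 (0.0557) or 3 (0.057), or without Hdac1/2 cKD replicate 1 (0.0626), 2 (0.0695) or 3 (0.0928), over a range of 0.0091 to 0.116. Without Hdac1/2 cKD replicate 1 or 2, 1 of the 34 was called. In Sin3a KD against NC Ascl2 was the 1 gene of 34 called (2.94% beside 7.96%), at 61.5 ± 27.6 (log2 3.09, SE 0.59, limma adjusted p = 0.00845), and without Sin3a KD replicate 3 it was not (0.0554, over a range of 0.00248 to 0.0956), while 2 were called without NC replicate 2 or 3. Between the knockdowns (5.88% beside 17.3%) Ube3a and H13, a signal peptide peptidase gene, were higher in Hdac1/2 cKD (H13 at 1057 ± 152 against 769 ± 88.4; log2 0.45, limma adjusted p = 0.0472), and none was lower. That count was 1 without NC replicate 1, Hdac1/2 cKD replicate 2 or Sin3a KD replicate 1, and 4 without NC replicate 3, and H13 passed in 3 of 9 fits that left out a library, over a range of 0.0311 to 0.192. The medians of the 34 were 0.12, 0.18 and -0.01 in the 3 comparisons, beside 0.03, 0.03 and 0.01 over all tested genes.

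**Figure D4:**
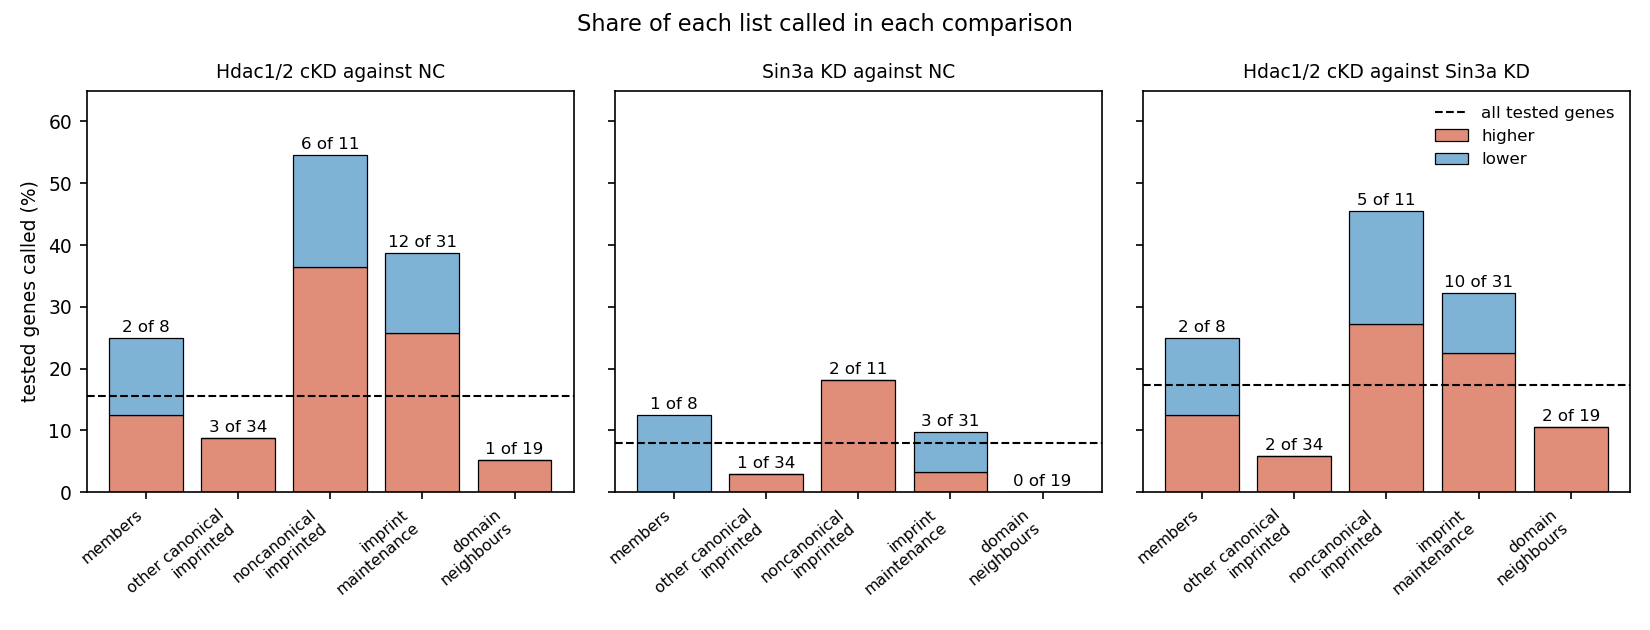
Percent of tested genes called (vertical axis) in the 8 genes described, in other canonical imprinted genes, in genes with noncanonical imprinting, in imprint maintenance genes and in domain neighbours, for the 3 comparisons. Numbers are called genes of those tested, colours the direction, and the dashed line is the share over all tested genes, at 15.6%, 7.96% and 17.3%.

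Genes linked in a broad sense to imprint maintenance, and not only those that keep or erase methylation, were listed too. Of 34 listed, 32 had a value and 31 were tested. The list was drawn up with earlier results of these data known, so its shares of calls are a description only. With both deacetylases lowered 8 rose against NC (Uhrf1, Dnmt1, Cbx1, Tdg, Dnmt3a, Arid4b, Naa10 and Dnmt3b) and 4 fell (Zfp42, Rlim, Dnmt3l and Yy1), which is 38.7% beside 15.6%. Without Hdac1/2 cKD replicate 1 the count was 7. Of the 12, 7 kept their call in all 9 fits that left out a library, and the others were called in 6 (Arid4b), 5 (Naa10), 4 (Dnmt3a) and 2 of 9 (Dnmt3b and Yy1). Uhrf1, whose product guides the maintenance methyltransferase to DNA, rose to 1461 ± 83.9 against 314 ± 39.96 (log2 2.22, SE 0.18, limma adjusted p = 9.06e-06). Dnmt1, that methyltransferase gene, rose to 1919 ± 127 against 939 ± 120 (log2 1.04, SE 0.13, limma adjusted p = 0.00024). Cbx1, a heterochromatin protein gene, rose to 1216 ± 79.3 against 592 ± 92.9 (log2 1.05, SE 0.14, limma adjusted p = 0.000394). Zfp42, a zinc finger gene of pluripotent cells, fell to 1006 ± 73.2 against 1596 ± 186 (log2 -0.66, SE 0.13, limma adjusted p = 0.00391). In Sin3a KD against NC 3 of 31 were called, 9.68% beside 7.96%: Arid4b rose, and the heterochromatin protein genes Cbx5 and Cbx3 fell. Cbx5 was at 1224 ± 220.5 against 2012 ± 233 (log2 -0.73, SE 0.15, limma adjusted p = 0.0111), and its call was lost without Sin3a KD replicate 1 (0.058, over a range of 0.0062 to 0.0823). Cbx3 was at 3510 ± 246 against 4353 ± 109 (log2 -0.31, SE 0.09, limma adjusted p = 0.0449), and its call was kept in 1 of 9 fits that left out a library, the one without Sin3a KD replicate 2, over a range of 0.031 to 0.244. Arid4b, whose product is a subunit of the Sin3 complex, stood at 1220 ± 132 against 757 ± 154 (log2 0.70, SE 0.17, limma adjusted p = 0.0259). This count was 1 without NC replicate 1 or Sin3a KD replicate 3 and 0 without Sin3a KD replicate 1. Arid4b lost its call without NC replicate 1 (0.0902) or 3 (0.064), or Sin3a KD replicate 1 (0.103) or 3 (0.105), over a range of 0.00802 to 0.127. Between the knockdowns 7 were higher in Hdac1/2 cKD and 3 lower, 32.3% beside 17.3%, and 6 in all without Hdac1/2 cKD replicate 2 or Sin3a KD replicate 1. Trim28, the partner of ZFP57, was not called in any of the 3 comparisons (limma adjusted p of 0.170, 0.235 and 0.960). It was named for its role, and it passed against NC without NC replicate 2 in Hdac1/2 cKD (0.031, over a range of 0.031 to 0.544) and in Sin3a KD (0.0447, over a range of 0.0447 to 0.595).

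Genes with noncanonical imprinting, which rests on the histone mark H3K27me3 of the egg in place of DNA methylation, were also set beside them. Of 11 tested, 4 rose and 2 fell in Hdac1/2 cKD against NC (54.5% beside 15.6%), and 2 rose in Sin3a KD against NC (18.2% beside 7.96%). In the first of these comparisons, a gene that rose kept its call in 1 of 9 fits that left out a library. A gene that fell kept its call in 5 of 9, and the rest in all 9. For Impact, Phlda2 and the others above the counts were 2 and 1 of 8. The difference between these classes was not tested, and the lists were drawn up with earlier results of these data known.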

How the data were processed

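Messenger RNA was sequenced from 9 pools of 60 embryos at E2.75, 3 libraries in each of 3 groups taken from the sample titles. Per the submitters' processing notes, the authors counted reads with Salmon and normalised them with DESeq2 on build GRCm38. The sources used here give neither versions nor an annotation. The deposited values are a signal: normalised counts per gene, made by the authors with DESeq2. The share of low values that were whole multiples of the worth of 1 read, with a tolerance of 0.1, was 65.96% to 79.4% per library, so whole reads could not be recovered, no count model was used, and depth was estimated from the step. The 1 line without a gene name (0.00543% to 0.00896% of a library) was left out.

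Genes at 10 or above in 3 or more libraries were fitted on log2(value + 1) in limma 3.58.1 (R 4.3.3) with 1 mean per group, 6 residual degrees of freedom, and trended, robust moderation. The Benjamini-Hochberg adjustment took in the 13343 fitted genes in each comparison, and the fit was tested on simulated data. Coordinates and lengths are from GENCODE vM21 (GRCm38). Alternatives were pseudocounts of 0.5 and 5, other filters and scalings, 6 libraries, plain variances, replicate number, lane, and each library left out. Lane was read from the library descriptions (replicates 1 to 3 of NC ran on 5, 2 and 3, those of the double knockdown on 2, 2 and 3, and those of Sin3a KD on 4, 3 and 3). With lane as a factor, NC replicate 1 and Sin3a KD replicate 1, each alone on its lane, add nothing to a comparison.

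The genes and lists were chosen with earlier results of these data known. Besides the 9 genes, genes of a list could be named with values where they were among the 4 called genes of lowest adjusted p in a comparison (2 where none was called). Noncanonical genes, and maintenance genes between the knockdowns, are given as counts. Also named are the 2 genes most like each tested gene, domain neighbours by place, and Trim28.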

Additional observations from a re-analysis of the deposited data

How the results depend on the processing

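The number of the 8 genes called in Hdac1/2 cKD against NC was 2, 3 when centred on the median gene or with the replicate block, and 1 with a pseudocount of 0.5 or with equal totals. It was 0 in limma with no filter on low values, only the 2 groups compared, plain variances, or lane as a factor, where 5, 4, 3 and 3 had an unadjusted p below 0.05. In Sin3a KD against NC it was 1, and 0 with plain variances or lane as a factor, where 2 and 4 had an unadjusted p below 0.05. These counts at an unadjusted p have no share over all tested genes beside them and are a description only. In Hdac1/2 cKD against Sin3a KD the number called was 2, 3 with only the 2 groups compared, and 1 with no filter, plain variances, lane as a factor or the replicate block. Leaving out 1 library gave 0 to 3, 1 to 2 and 1 to 3 called genes in the 3 comparisons.

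Over all genes, 2083, 1062 and 2304 were called. Plain variances gave 1369 in the first comparison and 36 in the second, lane as a factor gave 94 in the second and 1002 in the third, and only the 2 groups compared gave 613 in the second. With 1 library left out the counts ran from 1271 to 2170, from 337 to 1538 and from 1426 to 2748. They moved by over 1.5 times without Hdac1/2 cKD replicate 1, 2 or 3 in the first (1286, 1271 and 1272), without NC replicate 1 (589) or 3 (679) or Sin3a KD replicate 1 (340) or 3 (337) in the second, and without Hdac1/2 cKD replicate 1 (1498) or 2 (1497) or Sin3a KD replicate 1 (1426) in the third. Equal totals moved the share of higher calls from 50.02% to 67.2% in the first and from 45.2% to 63.5% in the second, and centring on the median gene moved them to 35.3% and 34.7%. They shifted the median of all genes in the first by 0.11 and by -0.10.

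Directions of genes that did not pass turned in 6 fits. They were Igf2r in Sin3a KD against NC with lane as a factor (log2 0.16), Snrpn there with equal totals (0.064), without NC replicate 3 (0.0011) or without Sin3a KD replicate 3 (0.0062), Mest there without Sin3a KD replicate 3 (-0.14), and Grb10 in Hdac1/2 cKD against NC without NC replicate 3 (-0.14). Of 453 refits of the 8 genes, 406 kept direction and side of the threshold. The causes were not tested. Leaving out 1 library moved these log2 values from -0.074 up for Snrpn, up to 1.47 for Mest and up to 1.37 for Grb10. Deviations of same-numbered libraries had an r of -0.0193 to 0.0581, beside -0.0432 to 0.0331 for libraries of different numbers. Not every library correlated best with its own number. Values this small do not settle whether the numbers pair the libraries, and the main fit did not pair them. With the replicate block 2140, 1046 and 2372 genes were called, Igf2r passed in Hdac1/2 cKD against NC (adjusted p = 0.0327) and Snrpn did not in Hdac1/2 cKD against Sin3a KD (0.0517). With exon union lengths levels per kb were lower for every gene but Peg10, most for Grb10 (29.8 in place of 53.5 in NC), and in Sin3a KD Zfp57 (46.2) then stood above Grb10 (42.1). Depth limits Phlda2, Mest and Peg10, which rest on few reads in NC.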
